A study of Mus musculus with 8 samples.

Results

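The genes described here are 10 genes of the skeletal muscle lineage (Myod1, Myf5, Myog, Pax7, Des, Chrna1, Acta1, Myh3, Cdh15 and Tnnt1), read in cultures of primary mouse embryonic fibroblasts. They were chosen by name, as a measure of the myogenic content of cultures grown from embryos, and all 10 were found among the 24972 genes of the deposited table. RNA was taken from untreated cells of embryos at embryonic day 14, after 2 passages in DMEM with serum. The 8 libraries covered 4 genotypes with 2 libraries each: wild type (WT), a single intact copy of Tfam (Tfam+/-), no Zbp1 (Zbp1-/-), and both changes together (Tfam+/-Zbp1-/-, called the double mutant). Tfam packages and transcribes mitochondrial DNA, and Zbp1 is a sensor of left-handed nucleic acids that acts in innate immune signalling. The labels do not say whether a genotype's libraries were grown from different embryos, so p-values measure only the spread between these samples, which may be technical.

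Skeletal muscle of the embryo arises from progenitors that carry the paired-box factors Pax3 and Pax7. These progenitors become myoblasts under the basic helix-loop-helix factors Myf5 and Myod1, which bind E-box sequences, and then differentiate under Myog, fuse into myotubes and build sarcomeres. An embryo fibroblast culture is made from minced tissue that holds muscle as well as connective tissue, so that myoblasts can be carried into it. Some genes used to mark muscle, Des and Acta1 among them, are also expressed outside skeletal muscle, in smooth muscle cells and in fibroblasts that carry contractile fibres.

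The values are normalized counts made by the authors, and library totals ran from 16752835 to 18303036. The low value that recurred most in each library, taken as the worth of about 1 read, was 0.93 to 1.10 normalized counts, which gives about 15229850 to 19027848 reads per library. All 10 fibroblast markers looked at (Col1a1, Col1a2, Col3a1, Pdgfra, Pdgfrb, Thy1, Fn1, Vim, Dcn and Lum) were detected in every library, with a sum of 101581 to 145980 normalized counts per kb against 294.4 to 901.5 for the 10 muscle genes. Single markers could lie lower, as Lum at 224.7 per kb in Tfam+/- replicate 1, where Acta1 was at 589.9 and Des at 297.0. Tfam stood at 629 and 610 (WT), 278 and 365 (Tfam+/-), 675 and 471 (Zbp1-/-) and 424 and 375 (double mutant). Zbp1 stood at 64.6 and 69.8 in Tfam+/-, at 7.34 and 3.19 in WT and at 0.862 to 3.79 in the 4 libraries labelled as lacking it, a range that overlaps WT, so the WT level does not serve to check the deletion.

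Replicates were not equally far apart. The median squared difference between the WT libraries was 1.25 times what read counting alone would give, and between the double mutant libraries 1.24 times, against 28.6 times for Tfam+/- and 26.1 times for Zbp1-/-. The WT and double mutant pairs thus differed by little more than counting noise, and each test below was also run with these pairs counted as 1 sample each, a choice made after seeing the data. Tfam+/- replicate 1 and Zbp1-/- replicate 2 shifted together over many genes. An alternative fit with a term shared by these libraries was therefore run too. In that fit, 2 of the 3 residual degrees of freedom came from the near-duplicate pairs, and the SE of Acta1 against WT was 0.08 for Tfam+/- and Zbp1-/-, against 0.18 without the term.

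The promoters of 4 of the 10 genes are shown because they represent the roles compared below: a myogenic regulator (Myog), a receptor of the muscle membrane (Chrna1), the muscle intermediate filament (Des) and the skeletal muscle actin (Acta1). Each line gives the 250 bases before the transcription start, 5′ to 3′ on the gene's strand, from the RefSeq table for GRCm38.p6 (mm10). Capitals mark the E-box CANNTG, the sequence bound by Myod1, Myf5 and Myog.
Myog, chr1:134289754-134290003, plus strand: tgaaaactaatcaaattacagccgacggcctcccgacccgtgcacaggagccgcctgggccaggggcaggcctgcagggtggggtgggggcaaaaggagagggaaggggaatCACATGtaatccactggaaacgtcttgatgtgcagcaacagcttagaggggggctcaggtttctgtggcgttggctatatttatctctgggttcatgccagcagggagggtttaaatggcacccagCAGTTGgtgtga
Chrna1, chr2:73580339-73580588, minus strand: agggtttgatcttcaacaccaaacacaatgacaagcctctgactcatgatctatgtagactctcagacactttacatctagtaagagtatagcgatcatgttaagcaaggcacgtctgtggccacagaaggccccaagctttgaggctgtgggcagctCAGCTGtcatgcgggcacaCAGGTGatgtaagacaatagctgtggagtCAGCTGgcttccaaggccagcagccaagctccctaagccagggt
Des, chr1:75360042-75360291, plus strand: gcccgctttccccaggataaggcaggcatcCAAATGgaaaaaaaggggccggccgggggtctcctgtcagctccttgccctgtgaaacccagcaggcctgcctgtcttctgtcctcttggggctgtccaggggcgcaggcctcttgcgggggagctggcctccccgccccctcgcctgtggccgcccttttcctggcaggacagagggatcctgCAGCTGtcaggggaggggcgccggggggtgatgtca
Acta1, chr8:123894776-123895025, minus strand: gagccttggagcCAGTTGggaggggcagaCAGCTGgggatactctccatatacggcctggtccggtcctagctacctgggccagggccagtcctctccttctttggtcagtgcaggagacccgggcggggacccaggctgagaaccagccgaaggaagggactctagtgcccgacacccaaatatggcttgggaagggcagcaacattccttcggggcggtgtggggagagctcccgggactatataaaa
An E-box on either strand was found in 66.0% of the 27025 promoters of this length in the table, with a median of 1 per promoter, so its presence does not set these genes apart. Chrna1 held 3, at 92, 73 and 44 bases before the start, and Myog, Des and Acta1 held 2 each. The Acta1 promoter also held a CArG box, the sequence bound by serum response factor, which read CCAAATATGG and began 73 bases before the start. A CArG box with only A or T between CC and GG was found in 378 of the 27025 promoters (1.4%). This strict form was in neither the other 8 promoters that the table held for these genes nor that of Acta2, a smooth muscle actin. Stretches with a C or G in between were not counted, and the Acta2 promoter held such stretches, CCCTATATGG and CCTTGTTTGG. Of the 10 genes, 9 had a promoter in the table, and Myod1 had none there.

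The myogenic regulators were at the limit of detection. Myod1 (chr7:46376474-46379092), the factor that can convert fibroblasts to muscle, was listed at 0.981 normalized counts in WT replicate 1, about 1 read, and at 0 in the other 7 libraries. Myf5 (chr10:107482908-107486927), the earliest of these factors in the embryo, was listed at 1.09 and 0 (WT), 2.76 and 1.07 (Tfam+/-), 0 and 0 (Zbp1-/-) and 0.946 and 0 (double mutant). No library held more than about 3 reads of Myf5, and the genotypes overlapped, with both Zbp1-/- libraries at 0. Myog (chr1:134290004-134292548), which drives differentiation into myotubes, was listed at 0.949 and 0.902 (WT), at 2.35 and 0 (Tfam+/-) and at 0 in all 4 libraries without Zbp1. These values are too close to 1 read to order the genotypes, and a difference of this size was not detectable at this depth.

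Pax7 (chr4:139737059-139833530), which marks muscle progenitors and satellite cells and is also expressed in the neural tube and neural crest, was detected in every mutant library and in neither WT library. It was listed at 0 and 0 (WT), 12.8 and 8.46 (Tfam+/-), 3.97 and 11.5 (Zbp1-/-) and 7.35 and 5.71 (double mutant). The 6 mutant libraries overlapped each other and all lay above both WT libraries, which are themselves near-duplicates. That order, all 6 mutant libraries above both WT libraries, was met by 11.6% of the genes that could be tested, of which Pax7 was not 1. The mean of 6.23 was under the minimum for a test. Without that minimum, limma gave log2 changes of 3.51 ± 0.49 (SE) in Tfam+/-, 2.98 ± 0.49 in Zbp1-/- and 2.90 ± 0.49 in the double mutant against WT on the log2(value + 1) scale, with adjusted p-values (limma, Benjamini-Hochberg over all genes) of 0.14, 0.11 and 0.13, none of which passed 0.05.

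Cdh15 (chr8:122848374-122867397), M-cadherin, joins myoblasts and satellite cells to muscle fibres. It was listed at 4.78 and 0.909 (WT), 9.64 and 6.69 (Tfam+/-), 2.97 and 12.8 (Zbp1-/-) and 7.32 and 12.3 (double mutant). Zbp1-/- replicate 1 fell within the WT range, so the order seen for Pax7, with all mutant libraries above WT, did not hold for Cdh15. Chrna1 (chr2:73563281-73580338), the alpha subunit of the muscle acetylcholine receptor, was listed at 15.0 and 13.3 (WT), 13.5 and 17.3 (Tfam+/-), 10.3 and 8.05 (Zbp1-/-) and 4.83 and 12.0 (double mutant). All 4 libraries without Zbp1 lay below all 4 with it, by a margin of about 1 read at the nearest.

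Of the contractile genes, the embryonic and slow forms were barely detected. Myh3 (chr11:67078273-67102291), the embryonic myosin heavy chain of newly formed myotubes, was listed at 8.64 and 3.65 (WT), 2.35 and 3.88 (Tfam+/-), 1.94 and 4.43 (Zbp1-/-) and 0 and 0 (double mutant). The double mutant was the lowest genotype and the other 3 overlapped. Its difference from WT without the minimum level, -2.74 ± 0.49 (SE) on the log2(value + 1) scale, did not pass (limma, adjusted p = 0.14). Tnnt1 (chr7:4504569-4515975), slow skeletal troponin T, was listed at 7.84 and 2.80 (WT), 3.30 and 5.97 (Tfam+/-), 3.04 and 3.19 (Zbp1-/-) and 3.78 and 2.95 (double mutant), and the WT libraries spanned all the others.

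**Figure D1:**
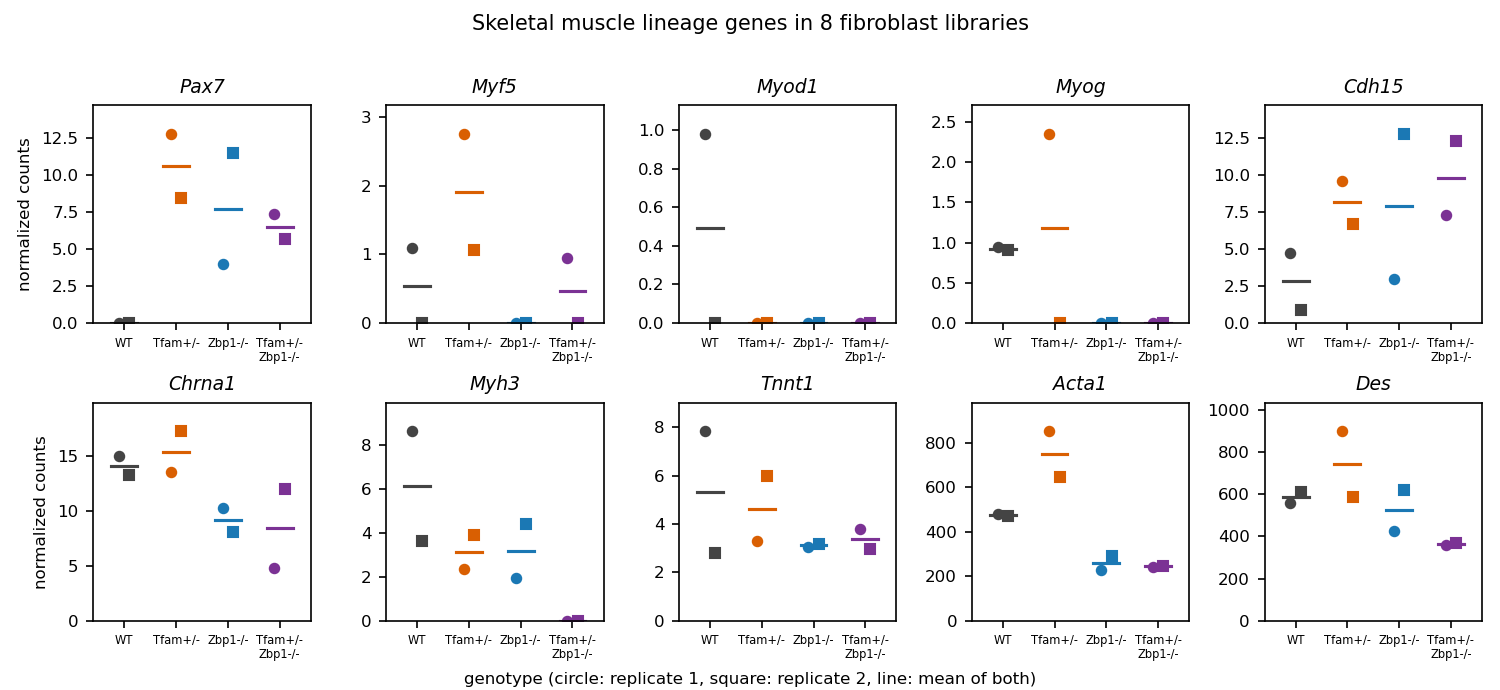
Normalized counts (vertical axis, each panel with its own scale from 0) of the 10 skeletal muscle lineage genes by genotype (horizontal axis). Circles are replicate 1, squares replicate 2 and lines the mean of both; Acta1 and Des alone stay above 200 in every library, and Pax7 is listed at 0 in both WT libraries alone.

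Acta1 and Des stood far above the other 8 genes. Acta1 (chr8:123891758-123894775), skeletal muscle alpha-actin, the thin filament of the sarcomere, was listed at 478 and 470 (WT), 853 and 646 (Tfam+/-), 229 and 292 (Zbp1-/-) and 242 and 246 (double mutant). The 4 libraries without Zbp1 lay below both WT libraries, and both Tfam+/- libraries lay above them. The order of the genotypes was Tfam+/-, WT, Zbp1-/-, double mutant, and the last 2 of these overlapped. Des (chr1:75360292-75368579), desmin, the intermediate filament that ties muscle fibrils together, was listed at 561 and 610 (WT), 899 and 588 (Tfam+/-), 426 and 620 (Zbp1-/-) and 358 and 366 (double mutant). Both double mutant libraries were below the other 6, while WT, Tfam+/- and Zbp1-/- overlapped. How common that order was over all tested genes was not counted. Tfam+/- replicate 1 was the highest library for 5 of the 10 genes, and WT replicate 1 for 3.

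Over all 8 libraries the mean per kb of transcript was 298.8 normalized counts for Acta1 and 182.8 for Des, against a median of 147.1 over the 13036 tested genes with a length. It was 3.88 for Tnnt1, 2.68 for Chrna1, 2.21 for Cdh15, 1.06 for Pax7, 0.516 for Myh3, 0.352 for Myf5, 0.351 for Myog and 0.0659 for Myod1. The 8 genes other than Des and Acta1 summed to 21.5 to 46.7 normalized counts in a library. By this measure 69.5% of the tested genes with a length lay below Acta1 and 55.9% below Des, while Chrna1 lay above 0.882% of them.

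Only 3 of the 10 genes (Acta1, Des and Chrna1) had a mean of at least 10 normalized counts and entered the test, a limit that 46.9% of all genes in the table also missed. Chrna1 entered with a mean of 11.8, and because a gene that passes through its highest group is more likely to differ, the counts below describe these genes and support nothing further. Differences are log2 changes on the log2(value + 1) scale with the SE of limma, fitted over all 8 libraries, and p-values are adjusted by Benjamini-Hochberg over all 13267 genes tested. In bulk RNA, fewer cells of a type and less RNA per cell cannot be told apart.

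In Tfam+/- against WT, none of the 3 genes passed limma's test and 1 had an unadjusted p under 0.05, where 0.731% of all genes tested passed. Acta1 was higher by 0.65 ± 0.18 (adjusted p = 0.30 by limma), Des by 0.31 ± 0.24 (0.57) and Chrna1 by 0.11 ± 0.43 (0.90). The median of the 3 was 0.31 and that of all tested genes -0.01. In Zbp1-/- against WT, again none of the 3 passed and 1 had an unadjusted p under 0.05, where 1.06% of all genes passed. Acta1 differed by -0.87 ± 0.18 (adjusted p = 0.082 by limma), Chrna1 by -0.58 ± 0.43 (0.44) and Des by -0.19 ± 0.24 (0.64), with a median of -0.58 against 0.11 over all tested genes. Acta1 in this comparison passed without Tfam+/- replicate 1 or without replicate 2, which enter only through the shared spread, with -0.87 in both cases and with 1.68% and 1.66% of all genes passing. The value of Des was 0.084 without Zbp1-/- replicate 1 and -0.46 without Zbp1-/- replicate 2, so the libraries of that genotype decided its sign.

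In the double mutant against WT, none of the 3 passed limma's test and 2 had an unadjusted p under 0.05, where 1.38% of all genes passed. Acta1 differed by -0.96 ± 0.18 (adjusted p = 0.061 by limma), Des by -0.69 ± 0.24 (0.31) and Chrna1 by -0.79 ± 0.43 (0.53), with a median of -0.79 against 0.12. With libraries rescaled to a trimmed mean of log ratios (TMM), which moved the median of all tested genes in this comparison to 0.01, Acta1 differed by -1.07 and passed (limma, adjusted p = 0.047), as did 1.39% of all genes. The value of Chrna1 was -0.21 without double mutant replicate 1 and -1.37 without double mutant replicate 2, and did not pass in either case.

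The double mutant against Tfam+/- gave the single call: Acta1 fell by 1.60 ± 0.18 (adjusted p = 0.0051 by limma), lower in both double mutant libraries than in both Tfam+/- libraries. Of the 3 genes 1 passed, where 5.64% of all genes tested passed. Des differed by -1.004 ± 0.24 (adjusted p = 0.067 by limma) and Chrna1 by -0.90 ± 0.43 (0.29), with a median of -1.004 against 0.14 over all tested genes. Des passed after the same rescaling, at -1.13 (limma, adjusted p = 0.048, with 5.67% of all genes passing), which moved the median of all tested genes to 0.02. The Acta1 call was lost without double mutant replicate 1 (-1.59, limma adjusted p = 0.073) and without double mutant replicate 2 (-1.61, limma adjusted p = 0.068). With the WT and double mutant pairs counted as 1 sample each, Acta1 differed by -1.60 ± 0.30 (limma adjusted p = 0.29), none of the 13267 genes passed limma's test (0.0%), and 921 had an unadjusted p under 0.05.

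In the double mutant against Zbp1-/-, none of the 3 genes passed limma's test and 0 had an unadjusted p under 0.05, where 0.415% of all genes passed. Acta1 differed by -0.08 ± 0.18 (adjusted p = 0.82 by limma), Chrna1 by -0.21 ± 0.43 (0.82) and Des by -0.51 ± 0.24 (0.47). The interaction asks whether the double mutant departs from the sum of the single changes, and none of the 3 passed there, with 1 at an unadjusted p under 0.05 and 0.663% of all genes passing. It was -0.73 ± 0.25 for Acta1 (adjusted p = 0.27 by limma), -0.82 ± 0.35 for Des (0.31) and -0.32 ± 0.61 for Chrna1 (0.73). The comparisons share libraries, and their values stand side by side without independent weight.

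**Figure D2:**
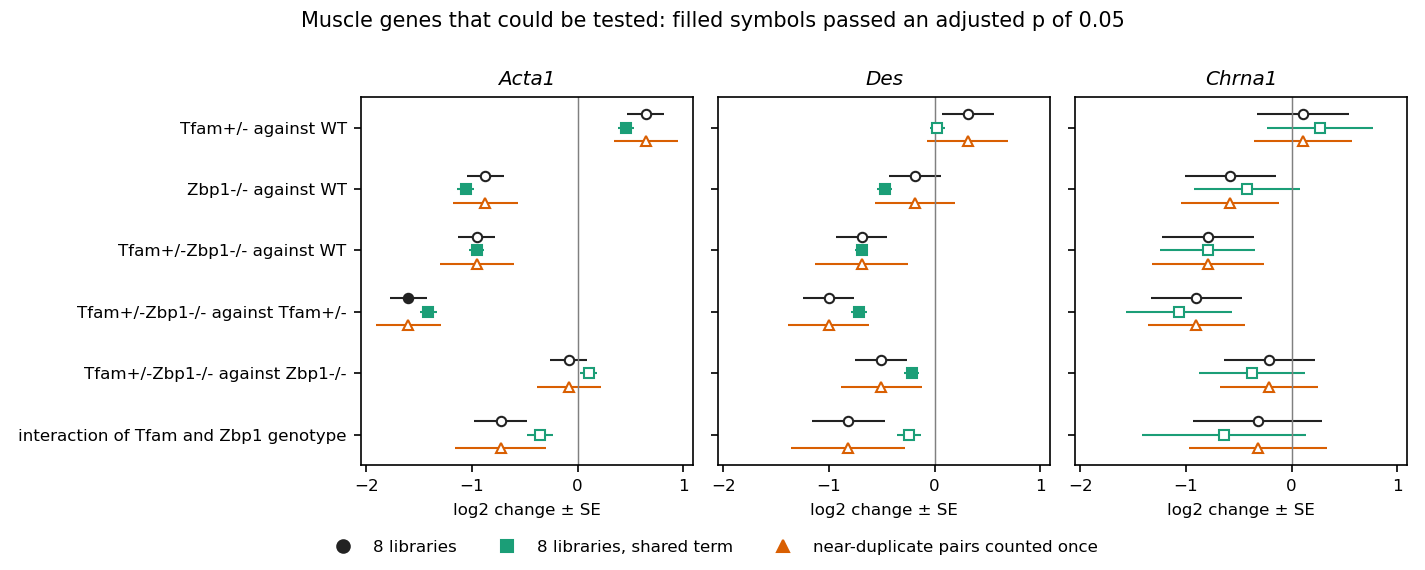
Log2 changes (horizontal axis, with the SE as bars) of Acta1, Des and Chrna1 in the 5 comparisons and the interaction (rows), under 3 fits: all 8 libraries, all 8 with the shared term, and the near-duplicate pairs counted as 1 sample each. Acta1 lies at -1.60 in the double mutant against Tfam+/- in the first of these and the last, and passes with all 8 libraries and with the shared term only.

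With the term shared by Tfam+/- replicate 1 and Zbp1-/- replicate 2, more genes of the table passed, Acta1 and Des among them. Acta1 was higher by 0.46 in Tfam+/- against WT (limma adjusted p = 0.00047, with 15.6% of all genes passing). It fell by 1.06 in Zbp1-/- against WT (limma adjusted p = 7.9e-09, 35.6% passing), by 0.96 in the double mutant against WT (6.1e-09, 42.5% passing) and by 1.41 in the double mutant against Tfam+/- (6.3e-11, 45.6% passing). Des fell by 0.47 in Zbp1-/- and by 0.69 in the double mutant against WT, and by 0.72 and 0.22 in the double mutant against Tfam+/- and Zbp1-/- (limma adjusted p = 5.8e-05, 1.4e-07, 2.3e-07 and 0.036). The share of all genes passing against Zbp1-/- was 23.8%, and for the interaction, where none of the 3 genes passed and 2 had an unadjusted p under 0.05, it was 16.9%. Chrna1 passed in none of the 6. Over single libraries, Acta1 and Chrna1, but not Des, were lower in all 4 libraries without Zbp1 than in all 4 with it, a pattern met by 2.45% of all tested genes.

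Acta1 lies in a family of near-identical actins, and its transcript was compared with theirs. Of 1397 windows of 50 bases along the Acta1 transcript, 0 occurred in Acta2, Actc1 or Actg2, and 28 (2.0%) occurred in Actb, the cytoplasmic beta-actin, of which the cytoplasmic gamma-actin Actg1 shared 10 (0.716%). Acta2, smooth muscle alpha-actin, was listed at 43827 to 66853 normalized counts. Per kb, Acta1 stood at 1.10% and 1.10% of it (WT), 1.80% and 1.36% (Tfam+/-), 0.618% and 0.798% (Zbp1-/-) and 0.773% and 0.789% (double mutant). The ratio was lower in the 4 libraries without Zbp1 than in the other 4. How reads common to several actins were assigned is not stated, and their part in the values of Acta1 was not tested. Actc1, the actin of heart and embryonic skeletal muscle, was listed at only 8.68 and 8.24 (WT), 5.78 and 5.87 (Tfam+/-), 5.99 and 5.57 (Zbp1-/-) and 4.65 and 2.90 (double mutant).

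Markers of smooth muscle fell in the double mutant, against Tfam+/- as Acta1 did and also against WT, where neither Acta1 nor Des passed. All 8 were tested (Acta2, Tagln, Myh11, Cnn1, Myocd, Smtn, Lmod1 and Synpo2). Of all genes tested, 5.64% passed in the double mutant against Tfam+/-, 1.38% in the double mutant against WT and 1.06% in Zbp1-/- against WT. In the double mutant against Tfam+/- 4 fell and 0 rose (Acta2 by 0.60, Myh11 by 1.06, Cnn1 by 0.75 and Lmod1 by 0.82, limma adjusted p = 0.0072, 0.0059, 0.027 and 0.033), with a median over the 8 of -0.76 against 0.14 for all tested genes. Against WT 2 fell and 0 rose (Acta2 by 0.46 and Myh11 by 0.82, limma adjusted p = 0.042 and 0.036), with a median of -0.58 against 0.12. Their summed level per kb was 48855 to 49486 normalized counts (WT), 54087 to 61459 (Tfam+/-), 41140 to 46605 (Zbp1-/-) and 36193 to 36402 (double mutant). Markers of leukocytes (Ptprc, Cd68, Csf1r, Adgre1, Lyz2, Tyrobp, Fcer1g and Aif1) were all tested too. Of these 8, 6 fell in the double mutant against Tfam+/-, with a median of -1.19, 2 fell in the double mutant and 1 in Zbp1-/- against WT, and their sum per kb was 3025 to 3060 in WT, 3496 to 3960 in Tfam+/-, 1734 to 1902 in Zbp1-/- and 1597 in both double mutant libraries. The sums of both lists, like Acta1, were highest in Tfam+/-.

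Tfam+/- was also highest in the sums of 2 further lists. The calls below stand beside 5.64% of all genes passing in the double mutant against Tfam+/- and 1.38% against WT. Of 6 epithelial markers 3 were tested, and 2 of them fell in the double mutant against Tfam+/- (Krt8 by 1.19 and Krt18 by 1.64, limma adjusted p = 0.043 and 0.0084). Krt18 also fell by 1.41 against WT (limma adjusted p = 0.036), where 1 of the 3 was higher and their median was -0.14. The epithelial sum per kb was 419 to 437 (WT), 489 to 647 (Tfam+/-), 353 to 429 (Zbp1-/-) and 364 to 372 (double mutant), while Epcam and Cdh1, which define epithelial cells, reached at most 5.11 and 6.34 normalized counts. Of 6 endothelial markers 3 were tested, and Emcn fell by 2.00 in the double mutant against Tfam+/- and by 1.77 against WT (limma adjusted p = 0.0037 and 0.018). The 3 did not fall together. In each of these comparisons 1 of them was higher, and the median of the 3 was -0.54 against Tfam+/- and -0.03 against WT. The endothelial sum was 74.4 to 76.0 (WT), 83.6 to 96.6 (Tfam+/-), 59.1 to 64.6 (Zbp1-/-) and 61.8 to 65.5 (double mutant), while Pecam1, Cdh5 and Tie1 reached at most 3.81, 7.48 and 0.990. None of the calls for markers of these 4 cell types held with the near-duplicate pairs counted as 1 sample each. Those against WT were also lost without any 1 of the WT or double mutant libraries. The part of any of these 4 cell types in the values of Acta1 and Des was not tested.

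**Figure D3:**
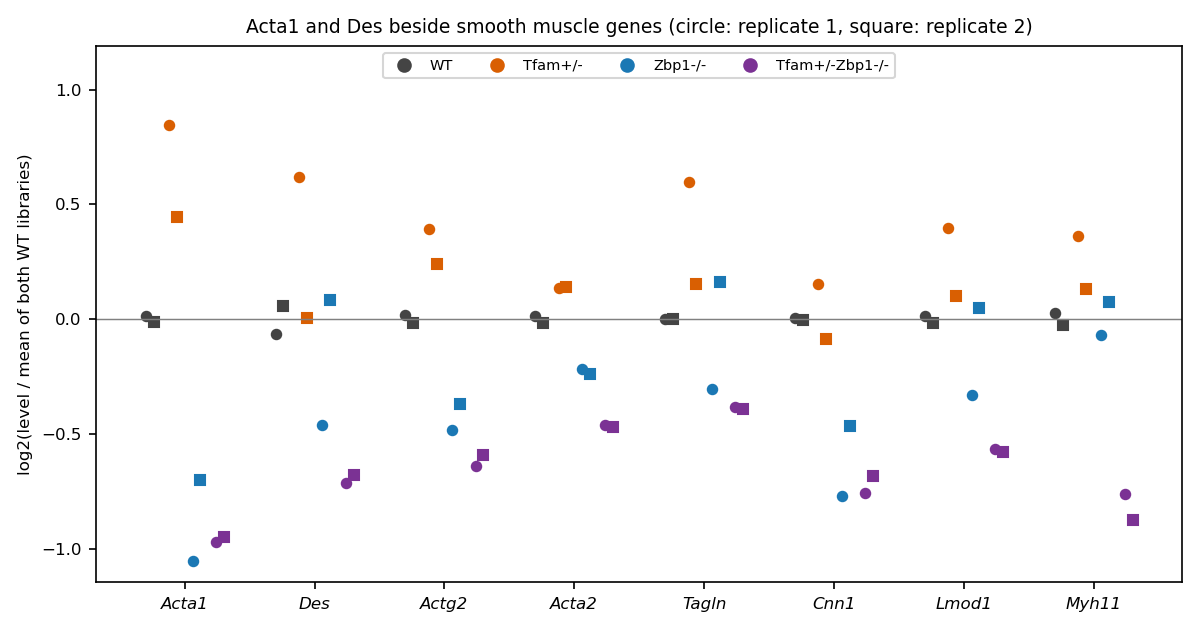
Level of Acta1 and Des beside 6 smooth muscle genes in each library, as log2 of the ratio to the mean of both WT libraries (vertical axis). Actg2 was not among the 8 markers and was added for its likeness to Acta1, Des and Chrna1 in these data (Pearson r = 0.976). Myocd, Smtn and Synpo2 are not shown. Circles are replicate 1 and squares replicate 2, coloured by genotype; Acta1 has all 4 libraries without Zbp1 below 0 and both Tfam+/- libraries above it.

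The genes whose pattern was most like the mean standardized profile of Acta1, Des and Chrna1 over the 8 libraries were Ncf1 (Pearson r = 0.994), Alox5ap (0.993), Actg2 (0.976), Slamf9 (0.974) and Coro1a (0.973). Ncf1, Alox5ap and Coro1a are genes of leukocytes, and Actg2 is the smooth muscle gamma-actin. The 8 libraries share genotypes and scaling, and the 5 genes are the extremes of 13267, so these correlations are a description.

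The rest of the myogenic programme was looked up in lists of genes by role. Of 13 other regulators, 10 were tested, led per kb by the MADS-box factors Mef2a (301.9), Mef2d (208.8) and Mef2c (110.7), which are also widely expressed outside muscle. In each comparison against WT 1 of the 10 rose and 0 fell, where 0.731% (Tfam+/-), 1.06% (Zbp1-/-) and 1.38% (double mutant) of all genes passed. In the other 3 comparisons none passed limma's test and 2 to 5 had an unadjusted p under 0.05. The gene that rose was Pax3, which acts before Pax7 in limb and trunk progenitors and also in the neural crest. Pax3 was listed at 49.0 and 43.5 (WT), 126 and 158 (Tfam+/-), 150 and 119 (Zbp1-/-) and 127 and 146 (double mutant). All 6 mutant libraries overlapped each other and lay above both WT libraries, as for Pax7, an order met by 11.6% of all tested genes. Pax3 was higher by 1.59 ± 0.19 in Tfam+/-, 1.51 ± 0.19 in Zbp1-/- and 1.54 ± 0.19 in the double mutant (limma adjusted p = 0.021, 0.027 and 0.024), in comparisons that share the WT libraries. None of these calls held without WT replicate 1, without WT replicate 2, or without either double mutant library, and the call in Tfam+/- was also lost without Tfam+/- replicate 2 (1.43) and the call in Zbp1-/- without its replicate 1 (1.35) or 2 (1.68). With the near-duplicate pairs counted as 1 sample each the adjusted p-values of limma were 0.74, 0.88 and 1.

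Pax3 and Pax7 are also genes of the neural crest, and some of its markers were read beside them. Foxd3, a factor of early neural crest, was listed at 3.95 and 7.57 (WT), 9.73 and 10.9 (Tfam+/-), 16.3 and 16.5 (Zbp1-/-) and 8.62 and 7.94 (double mutant). All 6 mutant libraries lay above both WT libraries, as for Pax3 and Pax7, with 7.94 against 7.57 at the nearest. That order was met by 11.6% of all tested genes. In WT and the double mutant Foxd3 stayed under 10. It thus reached the minimum for a test only through the other genotypes, and its order is a description. Sox10, a factor of neural crest and its glia, was listed at 21.3 and 31.5 (WT), 39.1 and 35.9 (Tfam+/-), 65.2 and 92.7 (Zbp1-/-) and 22.4 and 31.9 (double mutant), where the double mutant overlapped WT. Neither passed limma's test in any comparison. S100b, a calcium-binding protein of glia, rose by 1.05 in the double mutant against Tfam+/- (limma adjusted p = 0.048). The part of neural crest cells in the values of Pax3 and Pax7 was not tested.

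Among 15 genes of the myoblast and satellite cell surface and of fusion, 10 were tested, led per kb by Dag1 (948.0), Ncam1 (558.4) and Jam3 (423.1), all of which have wide roles in cell adhesion. In the double mutant against Tfam+/- 4 rose and 1 fell, where 5.64% of all genes passed. The median was 0.14, the same as over all tested genes. Cdon, a receptor that promotes myogenic differentiation, rose by 1.10 ± 0.12 (limma adjusted p = 0.0055), with values of 1861 and 1873 (WT), 1233 and 1471 (Tfam+/-), 2838 and 2458 (Zbp1-/-) and 2880 and 2885 (double mutant). All 4 libraries without Zbp1 were above the other 4 for Cdon, the reverse of Acta1. The share of all tested genes in this upward order was not counted. The median change of all tested genes against WT was itself 0.11 in Zbp1-/- and 0.12 in the double mutant. Its partner Boc rose by 0.70 ± 0.13 (0.031), Chodl by 1.33 (0.037) and Dag1 by 0.45 (0.028), while Ncam1 fell by 0.48 (0.049). The call for Cdon was lost without either double mutant library (lowest and highest value over all libraries left out 0.97 and 1.22). Boc also rose in Zbp1-/- against WT, by 0.89 ± 0.13 (limma adjusted p = 0.039). The Boc, Chodl, Dag1 and Ncam1 calls in the double mutant against Tfam+/- were each lost without any 1 of the WT or double mutant libraries or of Tfam+/- replicate 2, and all but that of Boc also without Tfam+/- replicate 1. The Boc call against WT was lost without any 1 of the WT, Zbp1-/- or double mutant libraries. Both Boc calls and those of Chodl and Dag1 were also lost with TMM scaling. That scaling moved the median of all tested genes in the double mutant against Tfam+/- from 0.14 to 0.02. In the other 4 comparisons none of the 10 passed limma's test, and 1 to 6 had an unadjusted p under 0.05.

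The sarcomere list held 38 genes, of which 11 were tested, led per kb by the slow and cardiac troponin genes Tnnc1 (34.3) and Tnnt2 (34.0) and by the embryonic and atrial light chain Myl4 (28.1). In the double mutant against Tfam+/- 1 rose and 0 fell, with a median of 0.28, where 5.64% of all genes passed. In Tfam+/- against WT 0 rose and 1 fell, where 0.731% of all genes passed. In the other 4 comparisons none passed limma's test, with 0 to 3 at an unadjusted p under 0.05. The gene that passed was Myh1, a fast adult myosin heavy chain, listed at 68.4 and 67.5 (WT), 19.7 and 14.7 (Tfam+/-), 49.9 and 62.5 (Zbp1-/-) and 55.8 and 61.8 (double mutant). Both Tfam+/- libraries were below the other 6, the reverse of Acta1, whose highest values were in Tfam+/-. How many of all tested genes had that order was not counted, so it is a description of Myh1 only. Myh1 fell by 1.93 ± 0.22 in Tfam+/- against WT and rose by 1.73 ± 0.22 in the double mutant against Tfam+/- (limma adjusted p = 0.017 and 0.0077). The first call was lost without WT replicate 1, WT replicate 2, Tfam+/- replicate 2 or either double mutant library, and the second without either double mutant library, over ranges of -2.13 to -1.73 and 1.53 to 1.93. Its neighbour Myh2 was listed at 6.83 to 27.1 and Myh4 at 0 throughout, and without stated use of strand, reads of overlapping genes cannot be told apart.

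**Figure D4:**
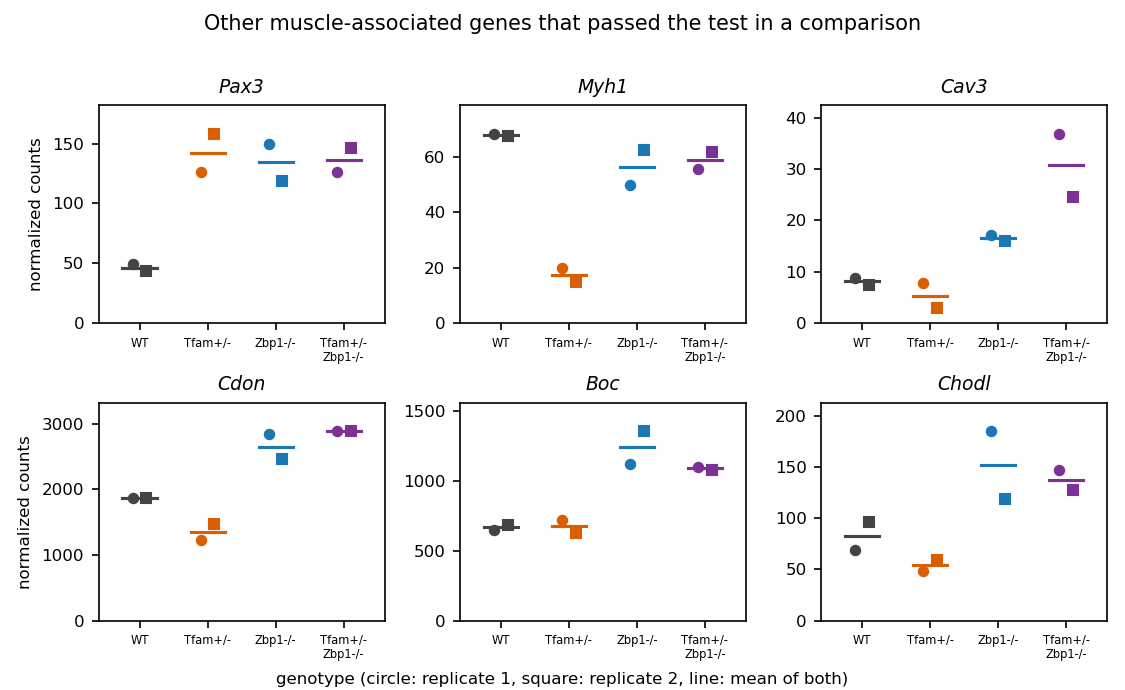
Normalized counts (vertical axis, each panel with its own scale from 0) by genotype (horizontal axis) for 6 muscle-associated genes that passed the test in a comparison. Circles are replicate 1, squares replicate 2 and lines the mean of both; Pax3 is lowest in WT, at 43.5 and 49.0, and Myh1 in Tfam+/-, at 14.7 and 19.7.

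Of 19 genes of excitation-contraction coupling and muscle metabolism, 5 were tested, led per kb by the enolase Eno3 (322.4) and by the junctophilins Jph2 (208.4) and Jph1 (19.7). Cav3, the caveolin of muscle membranes, was listed at 8.81 and 7.41 (WT), 7.74 and 2.99 (Tfam+/-), 17.2 and 16.0 (Zbp1-/-) and 36.9 and 24.6 (double mutant). All 4 libraries without Zbp1 were above the other 4, an order whose share over all genes was not counted. Its mean was 8.11 in WT and 5.37 in Tfam+/-, and it reached the minimum for a test only through Zbp1-/- (16.6) and the double mutant (30.7), so that it had to differ and its test is a description. Cav3 rose by 2.40 ± 0.44 in the double mutant against Tfam+/- (limma adjusted p = 0.027), and the call was lost without either WT or either double mutant library (1.83 to 2.96 over all libraries left out). Of 9 genes of the neuromuscular junction, 2 were tested, Chrnb1 and Lrp4. Per kb the list was led by Chrnb1 (57.4), the beta subunit that assembles with Chrna1, then Lrp4 (22.1), the agrin receptor, and Rapsn (4.35), the scaffold of the receptor. Lrp4 rose by 0.69 in the double mutant against Tfam+/- (limma adjusted p = 0.045), where 5.64% of all genes tested passed. The call was lost without any 1 of the WT, Tfam+/- or double mutant libraries (0.58 to 0.79), and with TMM scaling. No other gene of the 2 lists passed in that comparison, and in the other 5 comparisons neither list had a gene that passed limma's test, and at most 3 had an unadjusted p under 0.05. Ckm, the muscle creatine kinase, and Chrng, the embryonic receptor subunit, were among the untested genes and reached at most 1.10 and 0.981 normalized counts in a library.

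**Figure D5:**
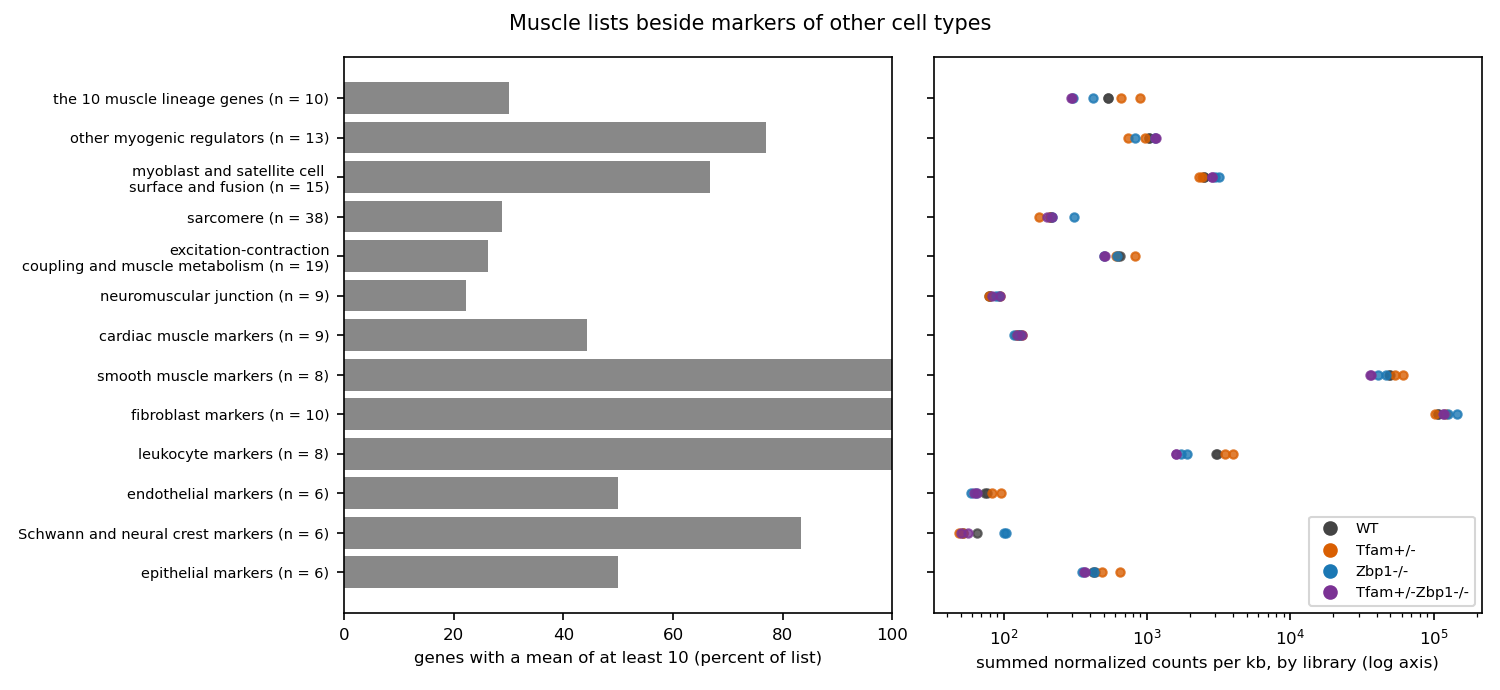
Left, percent of each gene list with a mean of at least 10 normalized counts; right, summed normalized counts per kb in each library on a log axis, coloured by genotype. Of the 10 muscle lineage genes 30.0% reached that mean, and every fibroblast, smooth muscle and leukocyte marker did.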

How the data were processed

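RNA-seq of 8 libraries was aligned with STAR 2.6.1a to mm10 with RefSeq genes, and Salmon was also named, per the submitters' processing notes and the series' design text. The deposited table holds normalized counts, a signal scaled between libraries by the authors. How reads were counted and scaled, and whether strand was used, is not stated, so overlapping genes are uncertain.

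From these values, log2(value + 1) of the 13267 genes with a mean of at least 10 was fitted with limma 3.58.1 in R 4.3.3 (empirical Bayes with trend, all 4 genotypes together, two-sided, Benjamini-Hochberg threshold 0.05). The code was tested on simulated data. Alternatives changed the pseudocount, filter, scaling (TMM, trimmed mean of M-values), trend, samples, replicate block, shared term and libraries. Depth is estimated from the low value that recurred most in each library. Transcript lengths are, per gene, the longest GENCODE M21 transcript that is paired with a RefSeq accession. The text names all 10 genes, those of the other muscle lists that passed in a comparison, the 3 highest per kb of each, and the 5 most alike in pattern. Members and lists were chosen with earlier results of these data known.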

Additional observations from a re-analysis of the deposited data

How the results depend on the processing

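The number of the 3 tested genes (Acta1, Des and Chrna1) that passed limma's test was 0 in each comparison except the double mutant against Tfam+/-, where it was 1. With the shared term it was 1 in Tfam+/- against WT, 2 in Zbp1-/- against WT, and in the double mutant 2 when set against WT, 2 when set against Tfam+/- and 1 when set against Zbp1-/-. In these 5 comparisons 15.6%, 35.6%, 42.5%, 45.6% and 23.8% of all genes passed with that term. The fit of only the 6 other libraries left Tfam+/- and Zbp1-/- with 1 library each. Its spread came only from the near-duplicate pairs, so its calls are not counted here and add no independent weight. For the double mutant and WT the number of the 3 genes that passed was 1 with TMM scaling (1.39% of all genes). It was 2 with only the genotypes compared (44.7% of all genes), where the spread came only from the near-duplicate pairs. Against Tfam+/- it was 2 with TMM scaling (5.67%) and 0 with these pairs counted as 1 sample each. Leaving out 1 library at a time gave 0 to 1 in Zbp1-/- against WT, 0 to 1 in the double mutant against WT and 0 to 2 against Tfam+/-. The interaction gave 0 under every alternative run. TMM scaling also lost the calls for Boc, Chodl, Dag1 and Lrp4. Replicate numbers did not pair the libraries (correlations of same-numbered deviations -0.698 to 0.0591), and with the number as a replicate block the counts were again 0, and 1 against Tfam+/-, while the calls for Pax3, Boc, Chodl, Dag1, Ncam1, Lrp4 and, in Tfam+/- against WT, Myh1 were lost.

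Changes of sign were all in values that did not pass. Des in Zbp1-/- against WT was 0.084 without Zbp1-/- replicate 1 and -0.46 without its replicate 2. Chrna1 in Tfam+/- against WT was -0.056 without Tfam+/- replicate 2 and 0.27 without its replicate 1. Without double mutant replicate 1, Chrna1 was 0.37 against Zbp1-/- and 0.26 for the interaction, and without replicate 2 it was -0.79 and -0.90. Acta1 in the double mutant against Zbp1-/- was 0.10 with the shared term, 0.091 with the 6 other libraries or without Zbp1-/- replicate 2, and -0.26 without Zbp1-/- replicate 1. The cause was not tested. Depth limits the 7 genes with a mean under 10, most of them at a few reads per library.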

Other observations

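Markers of cardiac muscle, the other striated muscle of the embryo, were mostly low. Of 9 genes, 4 had a mean of at least 10 normalized counts, led per kb by Hand2 (77.3), which is also expressed in limb and neural crest mesenchyme, then Nppb (27.1) and Gata4 (7.31). Nkx2-5, Myh6 and Myl7, which define cardiomyocytes, reached at most 3.03, 7.72 and 6.96 in a library. The summed level per kb was 125.6 and 129.2 (WT), 122.8 and 134.4 (Tfam+/-), 117.3 and 130.2 (Zbp1-/-) and 124.4 and 133.9 (double mutant), so the genotypes overlapped. No cardiac marker passed limma's test in any of the 5 comparisons or the interaction, and at most 1 had an unadjusted p under 0.05.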
